A study of Mus musculus with 12 samples.

Results

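The 31 genes described here code for the enzymes and carriers of fatty acid beta-oxidation in mitochondria and peroxisomes. They were chosen by name, and all 31 were found among the 12441 genes of the deposited table. Levels are given as log2 CPM, the log2 of reads scaled to an effective size of the library. The mean level of each of the 31 was above 0 log2 CPM in all 4 groups, the lowest being Acot2 with 0.80 in D316Y cells after lipopolysaccharide (LPS). RNA had been sequenced from mouse bone marrow-derived macrophages, which are grown from marrow cells in L929-conditioned medium, here for 6 days. The 4 groups of 3 libraries each were unstimulated wild type (WT), unstimulated D316Y, WT after 24 h of LPS at 100 ng/mL and D316Y after the same LPS treatment. D316Y stands for an aspartate-to-tyrosine substitution in COQ6, carried in the homozygous state. COQ6 is a flavin-dependent monooxygenase of coenzyme Q synthesis. The substitution leaves the gene in place, so the level of its transcript is no check of the genotype labels. The sources used here give no strain, sex or age of the animals and do not say whether replicates were separate animals or cultures, so every p-value measures only the spread between these libraries.

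A fatty acid enters oxidation once an acyl-CoA synthetase has joined it to coenzyme A. Long chains then cross the inner mitochondrial membrane as carnitine esters and are shortened in repeated rounds of dehydrogenation, hydration, a further oxidation and thiolysis, while very long and branched chains start in peroxisomes. The acyl-CoA dehydrogenases pass their electrons through the electron transfer flavoprotein to coenzyme Q, the product of the pathway that COQ6 serves. In macrophages, beta-oxidation is best known as a fuel route of resting and alternatively activated cells, whereas LPS-stimulated cells rely more on glycolysis.

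The libraries held 32.8 to 47.2 M reads in the table, and the 31 genes took 0.159 to 0.246% of them. The effective size behind log2 CPM was 1.19 to 1.32 times these reads at rest and 0.826 to 0.922 times with LPS. LPS minus unstimulated differences in log2 CPM therefore lie higher than those in plain shares of reads. Members other than Acsl1, Acsl5 and Acaa1a together took 0.1345 to 0.1761% of reads at rest and 0.0951 to 0.118% with LPS. LPS differences in plain shares were not tested. Macrophage markers were all present (10 of 10 listed) and their summed level was 32630 to 39510 CPM without and 54970 to 70850 CPM with LPS. With LPS the sum was 64700 to 70850 CPM in WT and 54970 to 63810 CPM in D316Y, without overlap. At rest the genotypes overlapped, at 35230 to 39510 CPM in WT and 32630 to 35640 CPM in D316Y. The mean was lower in D316Y for all 10 markers at rest and for 9 with LPS, and none passed a genotype comparison. Lyz2 led the sum, at 14.7 to 15.9 log2 CPM. Of the 10 markers, 5 rose and 2 fell with LPS (Cd68 and Mrc1) in each genotype. A list of 8 LPS-induced genes summed to 38.8 to 113 CPM at rest and to 2810 to 3548 CPM with LPS, without overlap. None of 7 erythroid markers and 1 of 8 adipocyte markers (Lipe) was listed in the table. The 5 listed neutrophil markers of 10 summed to 65.3 to 86.0 CPM at rest and 186 to 226 CPM with LPS, without overlap. Of these, S100a8, Camp and Csf3r rose in both genotypes, Csf3r had the highest level, and Ltf was lower on average with LPS. The 4 listed dendritic cell markers of 7 went from 8.30 to 13.95 CPM at rest to 19.8 to 27.0 CPM with LPS, and the 3 listed fibroblast or stromal markers of 8 from 0.516 to 2.55 CPM to 2.96 to 4.92 CPM. Among the dendritic cell markers, Ccr7 rose and Batf3 fell in both genotypes. The 4 listed osteoclast markers of 6 summed to 168 to 390 CPM at rest and 104 to 167 CPM with LPS, but Acp5 rose 14.4-fold in WT and 13.8-fold in D316Y while Dcstamp and Atp6v0d2 fell in both. The 1 listed lymphoid marker of 8, Cd4, was at 4.52 to 11.35 CPM at rest and 1.36 to 3.75 CPM with LPS. The part of these shifts in the results below was not tested. In bulk RNA, fewer cells of a type and less RNA per cell cannot be told apart.

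In both genotypes, unstimulated replicate 1 differed from the other 2 libraries of its group. Its share of reads from mitochondrially encoded genes was 0.449% in WT and 0.949% in D316Y, where the other 4 unstimulated libraries had 1.97 to 2.97%. The oxidation genes moved with this split: 24 of 31 in WT (77.4%) and 29 of 31 in D316Y (93.5%) had their highest unstimulated value in replicate 1, where 47.8% and 44.2% of all 11525 genes tested at rest did so. For 23 of the 31 (74.2%) this held in both genotypes, against 32.4% of all genes. The median excess of replicate 1 over the mean of replicates 2 and 3 was 0.26 on the log2 scale in WT and 0.38 in D316Y, and over all genes 0.07 and 0.03. Hsd17b4, the peroxisomal multifunctional enzyme, exceeded that mean by 0.86 in WT and 0.75 in D316Y. Hadha, a subunit of the mitochondrial trifunctional protein, did so by 0.59 and 0.98. Acaa1a behaved differently in the genotypes, with an excess of 0.45 in WT and -0.07 in D316Y. Among the LPS libraries, replicate 1 was the highest for 17 of 31 members in WT (54.8%, against 40.5% of all genes). In D316Y it was the highest for 4 (12.9%, against 28.9%). The median excess of LPS replicate 1 was 0.18 in WT and -0.11 in D316Y, and over all genes 0.05 and 0.0024. By arithmetic, leaving out unstimulated replicate 1 of the genotype raises the LPS minus unstimulated difference described below for each gene with a positive excess. These were 24 of 31 members in WT and 30 in D316Y, which restates the excess and is no further result. The difference changed sign or moved by over 1.5 times for 10 members in WT and 14 in D316Y. For several of these, not all, the values are given both ways. The same counts were not made over all genes.

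**Figure D1:**
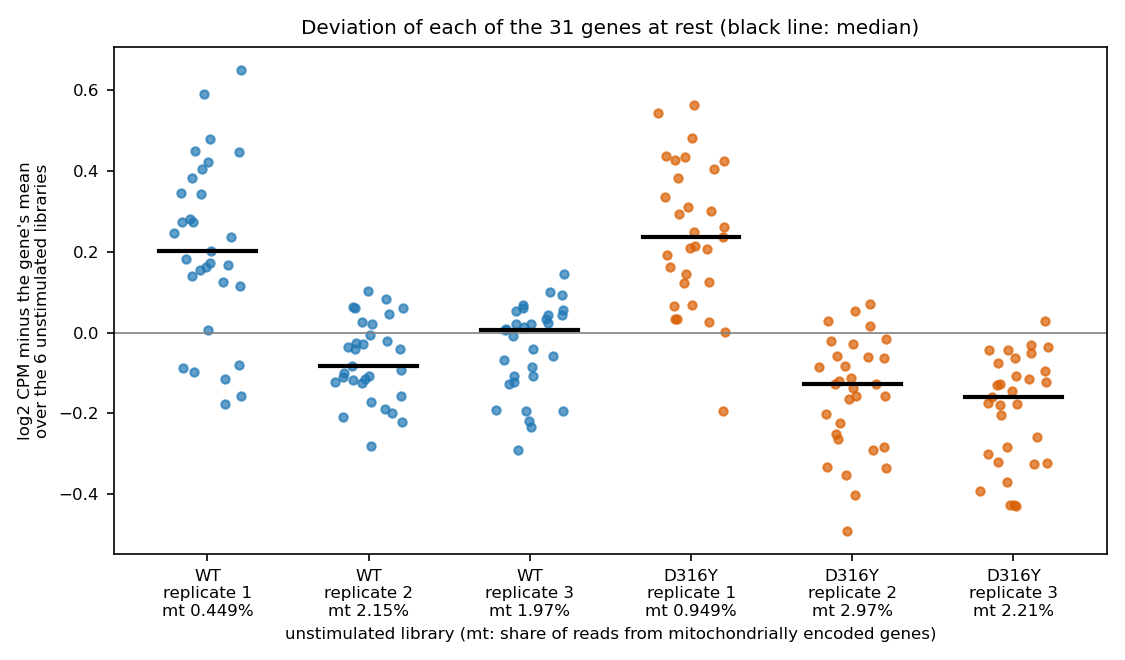
Deviation of each of the 31 genes from its own mean over the 6 unstimulated libraries, in log2 CPM (vertical axis), by library (horizontal axis, with the share of reads from mitochondrially encoded genes); each point is 1 gene and the black line is the median. The medians of both replicate 1 libraries lie above 0, and both replicate 1 libraries have under 1% of reads from mitochondrially encoded genes.

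The first comparison asked how the oxidation genes responded to LPS in WT cells. Of the 31 genes, 8 rose and 2 fell at a limma adjusted p under 0.05, where 18.1% of all 11663 genes tested rose and 19.0% fell. The 8 that rose included an acyl-CoA synthetase raised 23.1-fold (Acsl1), a second synthetase (Acsl5), the peroxisomal thiolase Acaa1a, and 5 mitochondrial enzymes that rose 1.52- to 1.79-fold. The thioesterase Acot2 fell 4.10-fold and the electron transfer flavoprotein subunit Etfb fell 1.36-fold. The median log2 difference over the 31 genes was -0.09, beside -0.01 over all genes tested. LPS and unstimulated libraries did not overlap for 19 of the 31 genes (61.3%), 12 above and 7 below, where 46.8% of all genes tested did not overlap.

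In D316Y cells the same 8 genes rose, where 19.4% of all 11795 genes tested rose. Acot2 and Etfb fell in D316Y as well, and so did Acadm, Hadhb and Acat1, which makes 5 of 31 where 19.0% of all genes fell. The libraries did not overlap for 22 of the 31 genes (71.0%), against 52.8% of all genes tested, and the median log2 difference was -0.0025 over the members and -0.03 over all genes. The count of members that fell was less settled than the count that rose. With quantile normalization 7 fell in WT and 9 in D316Y, still beside 8 that rose in each. Without both unstimulated replicate 1 libraries, 8 members rose and 4 fell in WT, with a median of 0.10. In D316Y 9 rose and 3 fell, with a median of 0.13, the ninth being Acadvl (0.51, adjusted p = 0.00834). Leaving out WT LPS replicate 2 also turned the WT median, to 0.12.

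**Figure D2:**
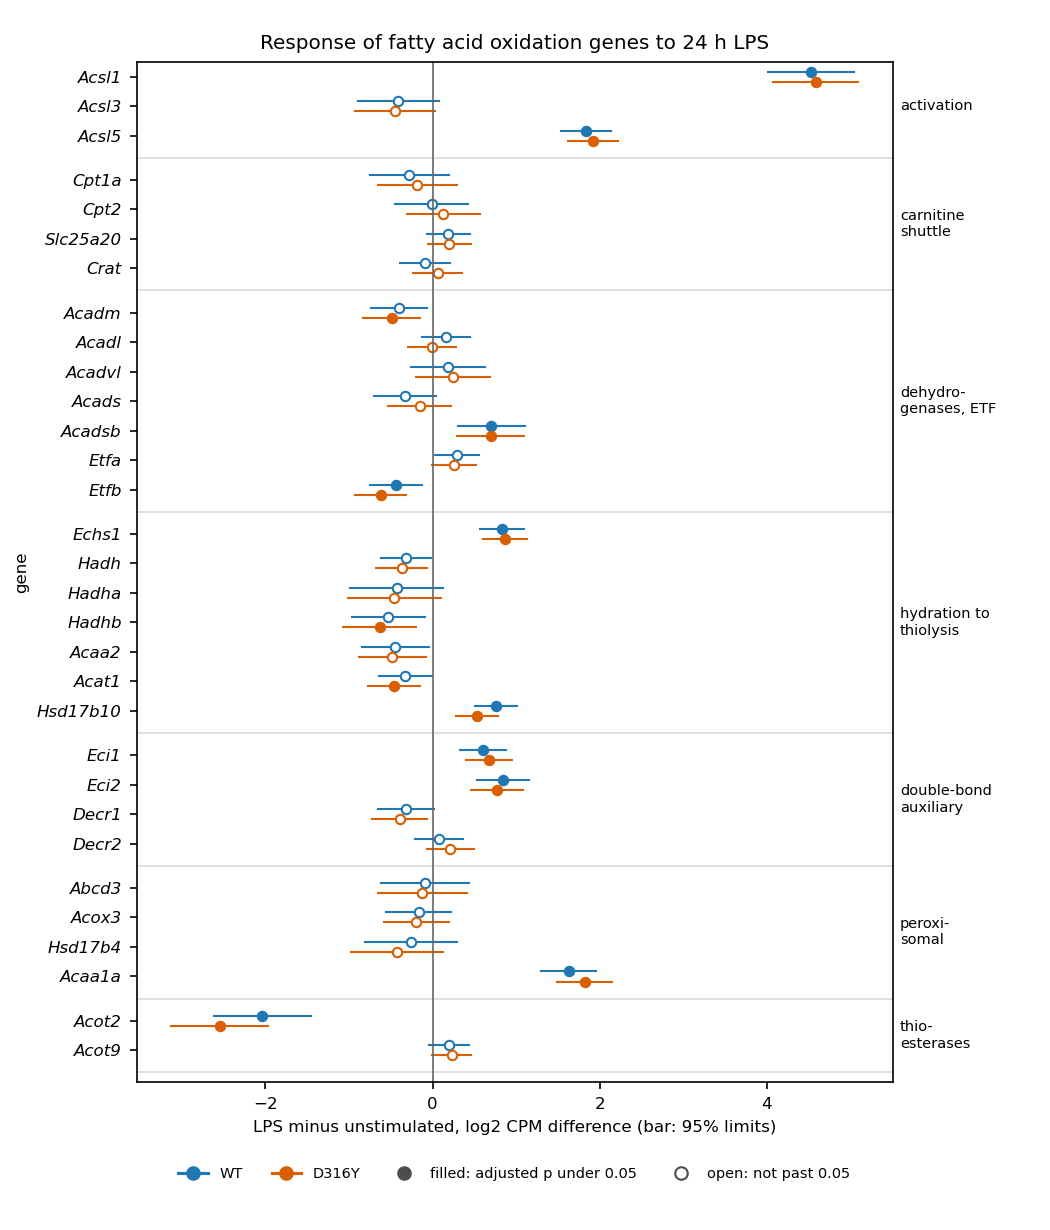
LPS minus unstimulated difference in log2 CPM (horizontal axis) for each of the 31 genes (vertical axis, grouped by role) in WT and D316Y cells, with bars for the 95% limits and filled points for an adjusted p under 0.05. Acsl1, Acsl5 and Acaa1a stand far to the right in both genotypes and Acot2 far to the left, and the 4 genes of the carnitine shuttle lie near 0.

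Promoter sequence was available for 26 of the 31 genes, in 28 windows that run from 250 bases before to 50 bases after a RefSeq start site (build GRCm38.p6). The windows below belong to the members that moved most with LPS (Acsl1, Acsl5 and Acaa1a up, Acot2 down), to a mitochondrial riser (Hsd17b10), and to the start shared by Hadha and Hadhb. All are on the + strand, and capitals mark CCAAT boxes (CCAAT), GC boxes (GGGCGG) and, in Hsd17b10, a match to the core of the interferon-stimulated response element, a pair of GAAA motifs with 2 bases between them, each on either strand.
Acsl1, chr8:46470787-46471086: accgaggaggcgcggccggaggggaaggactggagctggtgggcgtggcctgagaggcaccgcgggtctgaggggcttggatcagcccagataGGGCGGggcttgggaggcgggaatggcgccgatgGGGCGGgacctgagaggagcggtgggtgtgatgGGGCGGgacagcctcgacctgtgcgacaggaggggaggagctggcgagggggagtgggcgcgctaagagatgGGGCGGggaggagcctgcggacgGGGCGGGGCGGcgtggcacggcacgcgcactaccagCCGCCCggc
Acsl5, chr19:55253119-55253418: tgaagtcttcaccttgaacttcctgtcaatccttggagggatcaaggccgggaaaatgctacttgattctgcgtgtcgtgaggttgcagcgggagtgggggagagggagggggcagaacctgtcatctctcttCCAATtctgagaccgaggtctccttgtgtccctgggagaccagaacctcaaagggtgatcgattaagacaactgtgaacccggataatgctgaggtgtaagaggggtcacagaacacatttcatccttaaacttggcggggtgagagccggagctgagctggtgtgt
Acaa1a, chr9:119341044-119341343: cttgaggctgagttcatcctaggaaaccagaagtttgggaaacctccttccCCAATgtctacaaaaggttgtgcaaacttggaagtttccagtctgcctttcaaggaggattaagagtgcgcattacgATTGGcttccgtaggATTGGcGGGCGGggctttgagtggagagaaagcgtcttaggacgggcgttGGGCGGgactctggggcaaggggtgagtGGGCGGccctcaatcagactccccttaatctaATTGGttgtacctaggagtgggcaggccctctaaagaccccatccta
Acot2, chr12:83987611-83987910: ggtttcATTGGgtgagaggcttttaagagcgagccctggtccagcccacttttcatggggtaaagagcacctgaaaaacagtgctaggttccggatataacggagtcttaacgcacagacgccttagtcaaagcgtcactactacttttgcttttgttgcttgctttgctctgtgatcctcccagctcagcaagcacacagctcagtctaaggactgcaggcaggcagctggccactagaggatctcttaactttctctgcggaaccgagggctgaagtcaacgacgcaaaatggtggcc
Hsd17b10, chrX:152001646-152001945: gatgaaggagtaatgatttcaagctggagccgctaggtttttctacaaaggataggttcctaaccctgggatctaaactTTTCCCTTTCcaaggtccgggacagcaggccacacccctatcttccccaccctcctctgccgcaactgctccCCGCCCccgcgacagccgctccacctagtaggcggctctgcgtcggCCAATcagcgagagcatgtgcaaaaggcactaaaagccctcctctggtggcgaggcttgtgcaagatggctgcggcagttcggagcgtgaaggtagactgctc
Hadhb, chr5:30155003-30155302: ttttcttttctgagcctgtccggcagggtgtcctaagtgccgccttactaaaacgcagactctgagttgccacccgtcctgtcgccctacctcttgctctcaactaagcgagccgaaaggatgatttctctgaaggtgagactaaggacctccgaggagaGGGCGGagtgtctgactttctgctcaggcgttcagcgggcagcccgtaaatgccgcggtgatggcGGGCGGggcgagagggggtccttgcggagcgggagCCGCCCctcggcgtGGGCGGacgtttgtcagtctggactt

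The Acsl1 window, the upstream one of 2 for this gene, holds GC boxes on both strands, and the windows of Acsl5 and Acot2 have none. A GC box was found in 20 of the 28 member windows (71.4%) and in 35.7% of all 32851 windows, and a CCAAT box in 12 (42.9%) against 37.4%. That paired GAAA core was in 1 member window, that of Hsd17b10, and in 3.44% of all windows. The direct repeat bound by peroxisome proliferator-activated receptors, a pair of AGGTCA motifs with 1 base between them, was in 0 of the 28 windows and in 0.0396% of all windows, and TCAAGGTCA, the estrogen-related receptor element, in 0 and in 0.423%. Their shared core AGGTCA was in the windows of Acadm, Acadvl, Cpt1a and Echs1 (14.3% of member windows, 16.3% of all), and an NF-kB site in that of Etfa (3.57% and 5.80%). These are matches of letters in a short window and say nothing of binding. The windows used for comparison were not limited to genes found in these cells, so the shares do not set the members against other expressed genes. Hadha and Hadhb, the alpha and beta subunits of the trifunctional protein, start 86 bases apart on opposite strands in GENCODE (GRCm38, chromosome 5, 30155162 and 30155248), so the Hadhb window also holds the start of Hadha.

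Of the 3 acyl-CoA synthetases, 2 rose and 1 did not pass the test in either genotype. Acsl1 (ENSMUSG00000018796, chromosome 8, 46471037-46536051 in GRCm38, + strand), which activates long-chain fatty acids, was at 5.01, 4.53 and 4.26 log2 CPM in unstimulated WT and 4.85, 4.33 and 4.35 in unstimulated D316Y. With LPS it was at 9.58, 8.64 and 9.17 in WT and 9.10, 9.07 and 9.12 in D316Y. Every LPS library lay far above every unstimulated one, and the D316Y libraries with LPS were within the WT range. The rise was 4.53 on the log2 scale in WT (SE 0.24, 23.1-fold, adjusted p = 1.01e-08) and 4.58 in D316Y (SE 0.24, 24.0-fold, adjusted p = 8.71e-09). Acsl1 went from 1.41 to 1.98% of all reads of the 31 genes at rest to 18.5 to 28.5% with LPS.

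Acsl5, a synthetase of mitochondria and endoplasmic reticulum, was at 6.48, 6.27 and 6.23 log2 CPM in unstimulated WT and 8.23, 7.97 and 8.30 in WT with LPS. Its D316Y values were 6.24, 5.95 and 6.08 without and 7.92, 8.004 and 8.11 with LPS. The libraries with and without LPS were again fully separate, and the rise was 3.58-fold in WT (log2 1.84, SE 0.14, adjusted p = 3.18e-07) and 3.79-fold in D316Y (log2 1.92, SE 0.14, adjusted p = 1.99e-07). Its exons overlap those of Zdhhc6 on the opposite strand over 8.31% of their length, and whether reads were counted by strand is not stated in the labels. Acsl3, a synthetase of lipid droplets and endoplasmic reticulum, was at 3.27, 3.15 and 3.21 log2 CPM in unstimulated WT and 2.83, 2.42 and 3.16 with LPS, and at 3.41, 2.81 and 2.78 and then 2.24, 2.74 and 2.67 in D316Y. The WT groups overlapped while the D316Y groups did not, and the differences of -0.41 (SE 0.22, adjusted p = 0.172) and -0.45 (SE 0.22, adjusted p = 0.129) did not pass. Without D316Y unstimulated replicate 1 the D316Y difference was -0.25.

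The carnitine shuttle, which carries long-chain acyl groups into mitochondria, had no member past the threshold (0 of 4 in each genotype). Cpt1a, the outer-membrane transferase that sets the pace of entry, was at 6.01, 5.30 and 5.23 log2 CPM in unstimulated WT and 5.28, 5.03 and 5.40 with LPS. In D316Y it was at 5.73, 5.26 and 4.99 and then at 5.05, 5.28 and 5.11. Both comparisons overlapped, and replicate 1 was the highest of each unstimulated group. The difference was -0.28 in WT (95% limits -0.75 to 0.19, adjusted p = 0.353) and -0.18 in D316Y (-0.65 to 0.29, adjusted p = 0.549). Without the unstimulated replicate 1 of the genotype these differences were -0.03 and 0.02. Slc25a20, the carnitine-acylcarnitine carrier of the inner membrane, was at 4.98, 4.97 and 4.998 in WT without and 5.14, 5.12 and 5.26 with LPS, and in D316Y at 5.04, 4.95 and 4.91 and then 5.24, 5.30 and 4.96. The WT libraries were separate by a small margin and the D316Y libraries overlapped, with differences of 0.19 (-0.07 to 0.45, adjusted p = 0.247) and 0.20 (-0.06 to 0.46, adjusted p = 0.213). Cpt2, the inner transferase, differed by -0.01 in WT and 0.13 in D316Y (0.14 and 0.32 without unstimulated replicate 1), and Crat, which handles short chains, by -0.09 and 0.06.

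Among the 7 genes of acyl-CoA dehydrogenases and their electron acceptor, 1 rose and 1 fell in WT, and 1 rose and 2 fell in D316Y. Acadsb, the short/branched-chain dehydrogenase that also serves isoleucine breakdown, was at 4.54, 4.11 and 4.25 log2 CPM in unstimulated WT and 5.26, 4.76 and 4.98 with LPS. The D316Y libraries were at 4.71, 4.18 and 4.05 without and 4.92, 5.04 and 5.07 with LPS. The groups were separate in both genotypes, by the smaller margin in D316Y where unstimulated replicate 1 was highest. The rise was 1.62-fold in each genotype (log2 0.70, SE 0.19, adjusted p = 0.00933 in WT and 0.00912 in D316Y).

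The flavoprotein subunits that take electrons from these dehydrogenases did not move alike. Etfb was at 6.43, 6.16 and 6.37 log2 CPM in unstimulated WT and 5.94, 5.94 and 5.77 with LPS. In D316Y it was at 6.58, 6.16 and 6.19 without and 5.60, 5.63 and 5.84 with LPS, so all LPS libraries lay below all unstimulated ones. The fall was 0.44 on the log2 scale in WT (-0.44, SE 0.14, adjusted p = 0.0269) and 0.62 in D316Y (-0.62, SE 0.14, adjusted p = 0.00341). The WT call was lost with median centring (adjusted p = 0.0540) and without unstimulated replicate 1 (0.0689), unstimulated replicate 3 (0.0804) or LPS replicate 3 (0.101), within a range of 0.00243 to 0.101 over 15 alternatives. In GENCODE, 53.0% of the Etfb exon length is shared with Gm45233 on the same strand, a gene model without a row in the table, so the counts of the pair are uncertain. Etfa, the partner subunit, was at 5.84, 6.06 and 6.15 in WT without and 6.18, 6.48 and 6.28 with LPS, and in D316Y at 6.00, 5.99 and 5.97 and then 6.24, 6.27 and 6.23. It lay higher with LPS in every library, yet the differences of 0.30 (SE 0.12, adjusted p = 0.0747) and 0.26 (SE 0.12, adjusted p = 0.110) did not pass.

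Acadm, the medium-chain dehydrogenase, was at 5.20, 5.26 and 5.36 log2 CPM in unstimulated WT and 5.06, 4.75 and 4.81 with LPS, and in D316Y at 5.69, 5.18 and 5.12 and then 4.70, 4.86 and 4.96. The libraries did not overlap in either genotype. The difference was -0.40 in WT (SE 0.16, adjusted p = 0.0620) and -0.49 in D316Y (SE 0.16, adjusted p = 0.0242), and only the D316Y value passed. That call was lost without D316Y unstimulated replicate 1 (adjusted p = 0.0941), LPS replicate 1 (0.0988) or LPS replicate 2 (0.0586). Without both unstimulated replicate 1 libraries, Acadm passed in WT (-0.435, adjusted p = 0.0169) and not in D316Y (-0.31, adjusted p = 0.0695). The other dehydrogenases showed no call: Acads (short chain) differed by -0.33 and -0.15, Acadl (long chain) by 0.16 and -0.0025, and Acadvl (very long chain) by 0.18 and 0.24 in WT and D316Y. Without unstimulated replicate 1 the differences were -0.19 and -0.02 for Acads, 0.14 and 0.10 for Acadl, and 0.30 and 0.51 for Acadvl. Exons of Acadvl overlap those of Dvl2 on the opposite strand over 42.9% of their length.

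The 7 enzymes of hydration, the second oxidation and thiolysis split by gene. Echs1, the short-chain enoyl-CoA hydratase, was at 6.01, 6.27 and 6.21 log2 CPM in unstimulated WT and 6.87, 7.11 and 7.03 with LPS. D316Y cells had 6.21, 6.26 and 6.16 without and 6.97, 7.11 and 7.14 with LPS. The groups were well apart, with a rise of 1.78-fold in WT (log2 0.84, SE 0.12, adjusted p = 0.000119) and 1.82-fold in D316Y (log2 0.86, SE 0.12, adjusted p = 8.25e-05). Hsd17b10, a dehydrogenase of short branched chains that is also a subunit of mitochondrial RNase P, was at 5.60, 5.59 and 5.70 in WT without and 6.44, 6.47 and 6.26 with LPS. In D316Y it was at 5.88, 5.72 and 5.65 without and 6.33, 6.21 and 6.32 with LPS. Both genotypes were separate, with a rise of 1.69-fold in WT (log2 0.76, SE 0.12, adjusted p = 0.000192) and 1.45-fold in D316Y (log2 0.53, SE 0.12, adjusted p = 0.00248).

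The trifunctional protein genes lay lower with LPS, with wide spread at rest. Hadhb (ENSMUSG00000059447), which carries the thiolase activity, was at 6.53, 6.03 and 6.02 log2 CPM in unstimulated WT and 5.89, 5.47 and 5.64 with LPS. Its D316Y values were 6.57, 5.89 and 5.83 without and 5.45, 5.35 and 5.59 with LPS. The libraries did not overlap, and unstimulated replicate 1 was the highest of its group in both genotypes. The difference was -0.53 in WT (SE 0.20, adjusted p = 0.0573) and -0.63 in D316Y (SE 0.20, adjusted p = 0.0249). The D316Y call was lost without unstimulated replicate 1 (-0.40, adjusted p = 0.0974), LPS replicate 1 (0.0675) or LPS replicate 2 (0.0874). Without both unstimulated replicate 1 libraries, Hadhb passed in WT (-0.36, adjusted p = 0.0437) and in D316Y (-0.40, adjusted p = 0.0278). The processed pseudogene Gm13910, which has its own row in the table, shares 18.1% of the 50-base stretches of Hadhb transcripts. Hadha, with hydratase and dehydrogenase activity, differed by -0.43 in WT (SE 0.26, adjusted p = 0.218) and -0.46 in D316Y (SE 0.26, adjusted p = 0.182), and by -0.23 and -0.13 without unstimulated replicate 1.

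The remaining thiolases and the second dehydrogenase lay in the same direction. Acat1, the acetoacetyl-CoA thiolase of ketone and isoleucine metabolism, was at 5.69, 5.51 and 5.38 log2 CPM in unstimulated WT and 5.39, 5.11 and 5.09 with LPS, and in D316Y at 5.70, 5.33 and 5.31 and then 4.91, 4.93 and 5.11. The WT libraries overlapped by 1 value and the D316Y libraries were separate. The difference was -0.33 in WT (SE 0.15, adjusted p = 0.0983) and -0.46 in D316Y (SE 0.15, adjusted p = 0.0233). The D316Y call was lost without D316Y unstimulated replicate 1 (0.0876), LPS replicate 1 (0.0831) or LPS replicate 2 (0.0762). It was also lost without both unstimulated replicate 1 libraries (0.0505). Acaa2, the mitochondrial medium- and long-chain thiolase, differed by -0.45 and -0.48 (adjusted p = 0.0761 and 0.0558, and -0.32 and -0.25 without unstimulated replicate 1), and Hadh, the short-chain hydroxyacyl dehydrogenase, by -0.32 and -0.37 (adjusted p = 0.0904 and 0.0515). Neither passed in either genotype.

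Of the 4 auxiliary enzymes that deal with double bonds, the 2 isomerases rose and the 2 reductases did not pass. Eci1, the mitochondrial enoyl-CoA isomerase, was at 3.53, 3.46 and 3.29 log2 CPM in unstimulated WT and 3.95, 4.07 and 4.06 with LPS, and in D316Y at 3.43, 3.33 and 3.32 and then 4.16, 3.95 and 4.00. Eci2, the isomerase found in mitochondria and peroxisomes, was at 4.41, 4.35 and 4.03 in WT without and 5.08, 5.16 and 5.07 with LPS, and in D316Y at 4.46, 4.14 and 4.11 and then 4.91, 4.95 and 5.15. Every LPS library lay above every unstimulated one for both isomerases. Eci1 rose 1.52-fold in WT (log2 0.60, SE 0.13, adjusted p = 0.00212) and 1.60-fold in D316Y (log2 0.68, SE 0.13, adjusted p = 0.000810). Eci2 rose 1.79-fold (log2 0.84, SE 0.14, adjusted p = 0.000430) and 1.71-fold (log2 0.77, SE 0.14, adjusted p = 0.000773). The 2,4-dienoyl-CoA reductases differed from each other in sign: mitochondrial Decr1 by -0.32 and -0.39 (adjusted p = 0.122 and 0.0586) and peroxisomal Decr2 by 0.08 and 0.21 (adjusted p = 0.688 and 0.227).

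Among the 4 peroxisomal genes, the thiolase rose and the importer, the oxidase and the multifunctional enzyme did not pass. Acaa1a (ENSMUSG00000036138, chromosome 9, 119339676-119350299 in GRCm38, + strand), which releases acetyl-CoA at the end of the peroxisomal cycle, was at 7.10, 6.56 and 6.74 log2 CPM in unstimulated WT and 8.39, 8.46 and 8.44 with LPS. The D316Y libraries were at 6.45, 6.37 and 6.68 without and 8.28, 8.44 and 8.24 with LPS. The groups were apart by more than their spread, with a rise of 3.09-fold in WT (log2 1.63, SE 0.15, adjusted p = 2.39e-06) and 3.53-fold in D316Y (log2 1.82, SE 0.15, adjusted p = 7.45e-07). Acaa1a shares 12.4% of its 50-base stretches with its paralog Acaa1b, which also rose, 2.02-fold in WT (adjusted p = 0.00240) and 3.38-fold in D316Y (adjusted p = 2.83e-05). The paralog had 75 to 169 reads in each WT library where Acaa1a had 4409 to 14413. Exons of Acaa1a also overlap those of Myd88, the adaptor of Toll-like receptors, on the opposite strand over 6.57% of their length.

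Hsd17b4, which hydrates and oxidizes peroxisomal intermediates, was at 6.92, 6.05 and 6.08 log2 CPM in unstimulated WT and 6.37, 5.75 and 6.15 with LPS, and in D316Y at 6.70, 5.94 and 5.95 and then 5.67, 5.74 and 5.88. Unstimulated replicate 1 stood well above its group in both genotypes, and the WT groups overlapped while the D316Y groups did not. The difference was -0.26 in WT (SE 0.25, adjusted p = 0.461) and -0.43 in D316Y (SE 0.25, adjusted p = 0.207). Without unstimulated replicate 1 of the genotype it was 0.03 in WT and -0.18 in D316Y. Abcd3, a peroxisomal acyl-CoA importer, differed by -0.09 and -0.12 (0.10 and 0.13 without unstimulated replicate 1), and Acox3, the oxidase of branched chains, by -0.16 and -0.20 (adjusted p = 0.424 to 0.798).

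The thioesterases, which split acyl-CoA back into fatty acid and coenzyme A, gave 1 fall and 1 value not past the threshold. Acot2 (ENSMUSG00000021226, chromosome 12, 83987861-83993873 in GRCm38, + strand), a mitochondrial enzyme for long chains, was at 3.57, 3.20 and 3.13 log2 CPM in unstimulated WT and 1.83, 0.95 and 1.02 with LPS. In D316Y it was at 3.87, 3.24 and 2.93 without and 0.76, 0.79 and 0.84 with LPS. The fall exceeded the spread in both genotypes, and the 3 D316Y libraries with LPS lay below the 3 WT libraries. It was 4.10-fold in WT (-2.04, SE 0.27, adjusted p = 5.59e-05) and 5.85-fold in D316Y (-2.55, SE 0.27, adjusted p = 7.08e-06). Reads with LPS numbered 153, 73 and 83 in WT and 61, 65 and 58 in D316Y, and 24.5% of the 50-base stretches of Acot2 are shared with Acot1, which has no row in the table. Acot9, a mitochondrial thioesterase of broad chain length, was at 5.64, 5.73 and 5.79 in WT without and 5.85, 6.01 and 5.88 with LPS, and in D316Y at 5.88, 5.77 and 5.70 and then 6.00, 6.02 and 6.01. It lay slightly higher in every LPS library, with differences of 0.19 (SE 0.11, adjusted p = 0.190) and 0.23 (SE 0.11, adjusted p = 0.122) that did not pass.

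Per kilobase of the principal transcript, the order of the 31 genes changed at its top with LPS. In unstimulated WT, the highest levels were those of Etfb (89.9 CPM per kb), Acaa1a (64.0 CPM per kb) and Hsd17b10 (51.6 CPM per kb), and the lowest was that of Acsl3 (2.35 CPM per kb). Acsl1 stood at rank 27 with 6.37 CPM per kb at rest and at rank 2 with 149 CPM per kb in WT with LPS, behind Acaa1a with 196 CPM per kb. Acsl1 took the same ranks in D316Y, with 5.94 and 140 CPM per kb. Acot2 went from rank 28 to the last rank, 31, in both genotypes.

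The second comparison asked whether D316Y cells differ from WT cells at rest. None of the 31 genes passed the limma test, where 0.00868% of the 11525 genes tested did (1 gene), and none had an unadjusted p under 0.05 or non-overlapping groups. For comparison, 337 genes had an unadjusted p under 0.05, and 8.13% of all genes did not overlap. limma voom on recovered reads also called 0 of the 31. The difference was negative for 22 members and positive for 9, and the median log2 difference was -0.06 beside -0.02 over all genes. Of all genes tested, 46.2% had a positive difference.

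The 4 members with the smallest unadjusted p at rest were Acaa1a, Acsl5, Acads and Acsl3, all lower in D316Y on average, and the values of all but Acads are given above. For Acaa1a the D316Y libraries at 6.37 to 6.68 overlapped the WT libraries at 6.56 to 7.10, with a difference of -0.30 (95% limits -0.73 to 0.14, adjusted p = 0.942). Acsl5 differed by -0.24 (-0.60 to 0.12, adjusted p = 0.942), with D316Y replicate 1 inside the WT range. Acads, the short-chain dehydrogenase, was at 5.32, 4.89 and 4.93 log2 CPM in WT and 5.06, 4.42 and 4.87 in D316Y. The groups overlapped, with a difference of -0.26 (-0.73 to 0.21, adjusted p = 0.942). The limits for Acsl3 were -0.67 to 0.25 around -0.21. The limits were wider still for Cpt1a (-0.79 to 0.42), Hadha (-0.86 to 0.51) and Hsd17b4 (-0.84 to 0.53).

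The labels do not say that replicate numbers pair libraries across genotypes. With same-numbered libraries at rest taken as pairs, the sign of the members' difference varied by pair. In pair 1, 11 of the 31 genes were lower in D316Y, with a median of 0.06. In pair 2 it was 24 with a median of -0.08, and in pair 3 it was 28 with a median of -0.15. Over all genes tested, the medians of pairs 1, 2 and 3 were 0.0016, -0.0185 and -0.0211. With the replicate block, 0 members passed, where 3 genes of all tested rose and 3 fell, and 3 of the 31 members had an unadjusted p under 0.05, where 2119 of the 11525 genes tested did. Leaving out WT replicate 1 turned the median to 0.03 with 20 of 31 members positive, and leaving out D316Y replicate 1 moved it to -0.20 with 27 negative. Of all genes tested, 48.2% and 44.9% were positive in these settings. Without both replicate 1 libraries, 29 of the 31 were negative, the median was -0.11 and 0 members passed. In that setting 45.8% of all 11655 genes tested were positive, with a median of -0.03. An unadjusted p under 0.05 was then found for 4 members and for 1542 of all genes tested.

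The third comparison made the same contrast in LPS-treated cells. None of the 31 genes passed, where 0.0442% of the 11306 genes tested did (5 genes). None had an unadjusted p under 0.05, beside 735 of all genes tested, and limma voom on recovered reads called 0 members. Acot2 was the 1 member whose groups did not overlap (3.23% of the members, against 12.5% of all genes tested). Its difference was -0.47 (SE 0.28, 95% limits -1.09 to 0.15, adjusted p = 0.817). Hsd17b4 had the smallest unadjusted p, with 5.67 to 5.88 log2 CPM in D316Y and 5.75 to 6.37 in WT, overlapping groups and a difference of -0.33 (-0.67 to 0.01, adjusted p = 0.774). Acat1 differed by -0.21 (-0.50 to 0.08) and Etfb by -0.19 (-0.46 to 0.07), each with an adjusted p of 0.825. In all, 24 of the 31 differences were negative, with a median of -0.09 beside -0.0033 over all genes. Of all genes tested, 49.2% had a positive difference. Taken by replicate number, 26 of 31 were lower in D316Y in pair 1, 14 in pair 2 and 17 in pair 3. The medians of these pairs were -0.31, 0.0094 and -0.05, beside -0.03, 0.03 and -0.0075 over the genes tested at rest. Without WT replicate 1 the median over the members was -0.03.

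**Figure D3:**
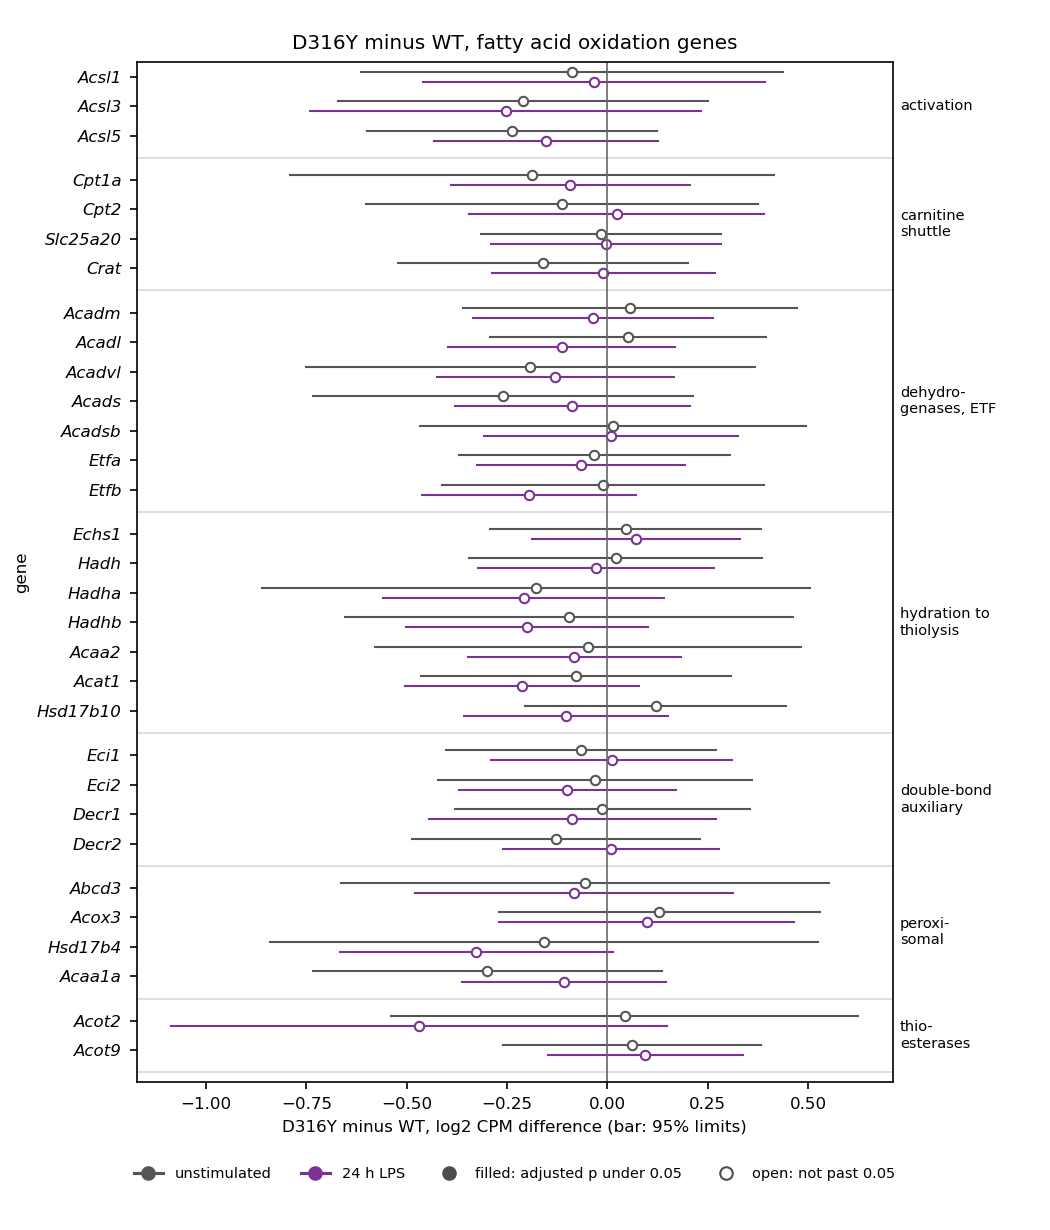
D316Y minus WT difference in log2 CPM (horizontal axis) for each of the 31 genes (vertical axis, grouped by role), unstimulated and after 24 h of LPS, with bars for the 95% limits. All points are open (no adjusted p under 0.05) and each bar crosses 0.

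The authors' deposited tables also called 0 members at an adjusted p under 0.05, but their fold changes and unadjusted p-values differed from those above. In the authors' deposited table for unstimulated cells, 0 of the 31 genes and 7 of 12441 (0.0563%) had an adjusted p under 0.05, and the smallest member value was 0.225. That was Acadvl, the very-long-chain dehydrogenase, with a log2 fold change of -0.34 in the authors' deposited table and -0.19 in the fit here. Unadjusted p-values under 0.05 in the authors' deposited table were those of Acadvl (0.0145), Acsl5 (0.0281), Acads (0.0398) and Hadha (0.0459), all lower in D316Y. In the authors' deposited table for LPS-treated cells, 0 of the 31 and 10 of 12441 genes (0.0804%) passed, and the smallest member value was 0.269, that of Hsd17b4 (-0.39). Unadjusted p-values under 0.05 in that authors' deposited table were those of Hsd17b4 (0.0101), Acsl5 (0.0105) and Acsl3 (0.0235), all lower in D316Y.

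Whether the LPS response itself differed between genotypes was tested as an interaction in the fit of all 12 libraries. No gene passed among the 11918 tested (0%), 251 genes and 0 members had an unadjusted p under 0.05, and limma voom on recovered reads called 0 members. The 3 members with the smallest unadjusted p were Hsd17b10 with -0.22 (95% limits -0.58 to 0.13), Acot2 with -0.51 (-1.34 to 0.31) and Etfb with -0.18 (-0.62 to 0.25), each with an adjusted p of 0.999. For Acsl1 the interaction was 0.05 (-0.67 to 0.78). The calls of Acadm, Hadhb and Acat1 in D316Y and not in WT are therefore not shown to differ between genotypes, with interactions of -0.09, -0.10 and -0.13. The LPS comparisons of each genotype use separate libraries, and the interaction uses both.

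Further genes of acyl-CoA metabolism were followed in a list of 39, of which 31 were in the table. In WT 8 rose and 4 fell (25.8% and 12.9%), and in D316Y 9 rose and 3 fell (29.0% and 9.68%), with medians of -0.01 and 0.01. Of all genes tested, 18.1% rose and 19.0% fell in WT, and 19.4% rose and 19.0% fell in D316Y. Acss2, the cytosolic acetyl-CoA synthetase, rose 3.48-fold in WT (log2 1.80, SE 0.24, adjusted p = 5.43e-05) and 3.85-fold in D316Y (adjusted p = 2.46e-05). Its mitochondrial counterpart Acss1 fell 3.26-fold (-1.71, SE 0.25, adjusted p = 0.000127) and 2.48-fold (adjusted p = 0.000928). Acot11, a further thioesterase, fell 2.37-fold and 2.12-fold (adjusted p = 0.000365 and 0.000995). Phyh, which starts the peroxisomal alpha-oxidation of phytanic acid, rose 1.83-fold in both (adjusted p = 0.000587 and 0.000552). Etfdh, which hands electrons from the flavoprotein to coenzyme Q, differed by -0.05 and 0.01 (adjusted p = 0.835 and 0.959).

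Of 26 regulators of oxidation, 19 were in the table, and 4 rose and 2 fell in WT while 6 rose and 1 fell in D316Y. These are 21.1% and 10.5% in WT, beside 18.1% and 19.0% of all genes tested. In D316Y they are 31.6% and 5.26%, beside 19.4% and 19.0%. Pparg, a fatty acid-activated nuclear receptor, went from 1408 to 2087 reads per library at rest to 18 to 42 reads with LPS. It fell 42.1-fold in WT (-5.40, SE 0.28, adjusted p = 9.61e-09) and 36.9-fold in D316Y (-5.20, SE 0.28, adjusted p = 1.23e-08). Nr1h3, the liver X receptor alpha, rose 3.10-fold and 3.62-fold (adjusted p = 2.56e-06 and 6.70e-07). Ppargc1b, a coactivator of mitochondrial genes, rose 2.66-fold and 2.76-fold (adjusted p = 0.000211 and 0.000140). Pdk2, a kinase that restrains pyruvate dehydrogenase, fell 1.56-fold in WT (adjusted p = 0.0121) and differed by -0.21 in D316Y (adjusted p = 0.381), with an interaction of 0.43 (adjusted p = 0.999). No gene of these lists passed in a genotype comparison or in the interaction.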

How the data were processed

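RNA-seq of 12 macrophage libraries was analysed from the authors' deposited tables. Per the submitters' processing notes, the authors used STAR 2.5.1a, bcl2fastq, featureCounts 1.4.6-p5 (Subread), limma and edgeR, in roles not stated; genome build and annotation: not given in the sources used. The 2 deposited tables (12493 entries, 52 repeated identifiers, 12441 genes) hold identical log2 CPM values, per the file headers, and the authors' log2 fold changes with deposited p-values and adjusted p-values. Against log2 of reads plus 0.5 over an effective size, 100% of values under 200 reads in each library fell within 0.01 of a whole read; 32.8 to 47.2 M reads per library limit the counting error, and reads are not independent molecules.

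The log2 CPM values were fitted with limma 3.58.1 in R 4.3.3 (data.table at version 1.17.8; eBayes with trend and robust, two-sided, Benjamini-Hochberg over all genes tested, threshold 0.05, no fold minimum). Genes were tested if 1 compared group had a mean log2 CPM of 0 or more. Genotypes were compared within 6 libraries; LPS effects and the interaction came from 1 fit of 12. The fit was tested on simulated data with known changes. For the resting genotype comparison it recovered 0% of 1.5-fold, 44.5% of 2-fold and 91.5% of 4-fold changes. For LPS in WT it recovered 1.5%, 57% and 95%. Each simulated set had 199 or 200 changed genes, where 2114 genes rose and 2214 fell with LPS in WT. The unadjusted p needed to pass is therefore smaller in the simulation, and these rates do not give the power of the LPS comparison. Simulated libraries were drawn independently, without the replicate 1 split. Folds are on the log2 CPM scale. Positions, lengths and shared 50-base stretches are from GENCODE M21 (GRCm38), promoters from RefSeq. The members and lists were chosen with earlier results of these data known. Values per library are given for the 2 members of each role with the smallest adjusted p for LPS in WT, the 3 with the smallest p for the interaction and the 4 with the smallest p for each genotype comparison; Etfa, Acadm and Hadhb were added after their values were seen. Related lists give the 4 genes with the smallest adjusted p for LPS in WT; Acaa1b and Etfdh were added. Alternatives covered filters, scaling, moderation, voom on recovered reads, the replicate block, the groups fitted and libraries left out.

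Deviations of same-numbered unstimulated libraries were correlated across genotypes, weakly for the last number (r = 0.606, 0.527 and 0.154 across genes). Of the unstimulated libraries, 4 correlated best with the library of their own number. Deviations within a group depend on each other, so a replicate 1 standing apart in both genotypes can raise the other values too. These values therefore do not establish that replicate numbers pair the libraries, and the labels do not say so. Between the LPS groups the same correlations were -0.0959, 0.0567 and -0.0190.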

Additional observations from a re-analysis of the deposited data

How the results depend on the processing

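All 8 members that rose (9 in D316Y with Acadvl, without its unstimulated replicate 1) kept their call in each genotype under every one of 15 alternatives, and so did Acot2 wherever it was tested. The genotype and interaction comparisons called 0 members under every alternative. The number of members that fell with LPS in WT (2) was 1 with median centring, 7 with quantile normalization, 4 with the replicate block and 4 without both unstimulated replicate 1 libraries, and 1 to 4 over the libraries left out in turn. In D316Y (5) it was 9 with quantile normalization, 8 with the replicate block, 3 without both, and 2 to 6. The WT median over members (-0.0904) was 0.105 without both replicate 1 libraries and -0.138 to 0.122 over the libraries left out; the D316Y median (-0.0025) was 0.134 and -0.0642 to 0.134. Hsd17b4 in WT ranged from -0.410 to 0.0262 and Cpt1a in D316Y from -0.348 to 0.0207 over the libraries left out, both turning positive without unstimulated replicate 1 of the genotype (also without both); Hsd17b4 in D316Y passed with quantile normalization (-0.63, adjusted p = 0.0425). Over all genes, the resting genotype comparison (0 rose, 1 fell) gave 0 that fell without the filter, with quantile normalization and without trend, 3 and 3 with the replicate block, 1 and 3 in the 4-group fit, 2 and 8 without both replicate 1 libraries, and 0 and 0 to 1 over the libraries left out. With LPS (2 rose, 3 fell) it was 0 and 1 under the stricter filter, 1 and 0 without trend, 1 that rose in the 4-group fit, and 1 to 16 and 1 to 6 over the libraries left out, the highest without WT replicate 2. Beside these counts, the replicate block changed no call of the members chosen by the naming rule. Causes were not tested. With 3 libraries a group, the 95% limits of many members span differences in both directions, so small genotype effects were not detectable here. In simulated data for the resting genotype comparison, drawn without the replicate 1 split, 0% of 1.5-fold and 44.5% of 2-fold changes were recovered.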

Other observations

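Genes that supply fatty acids to oxidation were followed with LPS as well. Of 20 genes of uptake, storage and lipolysis, 17 were in the table. In WT 3 rose and 6 fell (17.6% and 35.3%), and in D316Y 3 rose and 5 fell (17.6% and 29.4%), with medians of -0.19 and -0.05. Of all genes tested, 18.1% rose and 19.0% fell in WT, and 19.4% rose and 19.0% fell in D316Y. Lpl, the lipoprotein lipase that frees fatty acids from triglyceride particles, was at 11.58, 11.31 and 11.50 log2 CPM in unstimulated WT and 8.25, 8.64 and 8.62 with LPS. It fell 7.78-fold in WT (-2.96, SE 0.24, adjusted p = 5.84e-07) and 8.65-fold in D316Y (-3.11, SE 0.24, adjusted p = 3.33e-07). Lipa, the lysosomal acid lipase, fell 5.17-fold and 5.40-fold (adjusted p = 4.62e-06 and 3.15e-06). Fabp5, a fatty acid-binding protein, rose 2.92-fold and 3.21-fold (adjusted p = 7.06e-05 and 3.02e-05). Dgat2, which makes triglyceride, went from 7 to 44 reads per library at rest to 150 to 473 with LPS and rose 8.72-fold in WT (adjusted p = 0.000321) and 15.3-fold in D316Y (adjusted p = 4.23e-05).

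Of 10 genes of ketone body and propionyl-CoA metabolism, 9 were in the table, and 1 rose and 2 fell in WT while 1 rose and 3 fell in D316Y. These are 11.1% and 22.2% in WT, beside 18.1% and 19.0% of all genes tested. In D316Y they are 11.1% and 33.3%, beside 19.4% and 19.0%. Oxct1, which activates ketone bodies for use, fell 2.25-fold and 2.66-fold (adjusted p = 4.56e-05 and 7.78e-06). Pccb, a subunit of propionyl-CoA carboxylase, fell 2.05-fold and 2.31-fold (adjusted p = 0.00191 and 0.000550). Acat2, the cytosolic acetoacetyl-CoA thiolase, rose 2.59-fold and 2.31-fold (adjusted p = 0.000130 and 0.000325). Its mitochondrial counterpart Acat1 differed by -0.33 in WT and -0.46 in D316Y. Only the D316Y value passed, and that call held under 11 of 15 alternatives. Mcee, the methylmalonyl-CoA epimerase, differed by 0.76 in WT and 0.37 in D316Y (adjusted p = 0.0705 and 0.377).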
